A study of Arabidopsis thaliana with 6 samples.

Results

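Type 1 lipid transfer proteins are small secreted plant proteins. Their fold is held together by pairs of cysteines and encloses a tunnel that can take up a fatty acid or a similar lipid. Many are made in the epidermis and accumulate in the cell wall, and members of the family have been linked to the build-up of the cuticle and to responses to drought, salt and pathogens. The genes described here are those on a list of 10 Arabidopsis type 1 loci for which the array's annotation named a probe set with 1 gene. The list was chosen by the value of its lead gene, AT5G01870, whose transcript was lower on scutellarin, and the other loci were added as members of its family. Only 2 of the 10 loci had such a probe set, AT5G01870 and AT2G18370, out of 13286 genes named on the array, and each was read by 1 probe set. The other 8 loci were not analysed here: LP1 (AT2G38540), LTP2 (AT2G38530), LTP3 (AT5G59320), LTP4 (AT5G59310), LTP5 (AT3G51600), LTP6 (AT3G08770), LTP (AT2G15050) and LTP12 (AT3G51590).

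Both groups were whole seedlings of the Columbia background, aged 10 days and grown on wetted filter paper, each sample holding 100 seedlings from an independent experiment. One group of 3 samples grew on 100 µM scutellarin, a flavone glucuronide, dissolved in 1% DMSO. The mock group of 3 samples grew on 1% DMSO alone, so the solvent was common to all seedlings. All seeds also spent 2 days in the dark at 4 °C and then grew at 25 °C under a daily 12 h light period. RNA of each sample was read on an Affymetrix ATH1 array, on which several short probes, together called a probe set, give 1 intensity per transcript. Detection calls were not used here, and intensities of different probe sets cannot be set against each other as amounts of transcript. In RNA from whole seedlings, fewer cells of a type and less RNA per cell cannot be told apart.

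The 2 measured genes went in opposite directions. AT5G01870 was lower and AT2G18370 was higher in seedlings grown on scutellarin, and in neither gene did the arrays of the groups overlap. The groups also did not overlap at 37.1% of all probe sets tested, and AT5G01870 was chosen by its fall.

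AT5G01870 had intensities of 376, 461 and 258 in scutellarin replicates 1, 2 and 3. In mock replicates 1, 2 and 3 it had 1697, 2644 and 2768. The highest scutellarin array thus lay far below the lowest mock array, and mock replicate 1 was the lowest of its group. Means were 365 ± 102 in scutellarin seedlings and 2370 ± 586 in mock seedlings (SD, n = 3 each). The log2 change, scutellarin minus mock, was -2.71 ± 0.23 (SE), a level 6.53-fold higher in mock. No test is given for this gene, since its fall is what chose the family. Of the 9 pairings of a scutellarin with a mock array, the least different had 3.68 times and the most different 10.7 times as much signal in mock. Arrays of 1 group differed far less, by up to 1.79 times among scutellarin arrays and 1.63 times among mock arrays. All 6 values lay well above the floor of the scale, which is an intensity of 1, and adding 32 before taking log2 left the change at -2.60. Leaving out 1 array at a time gave log2 changes between -2.93 and -2.48, the smallest without scutellarin replicate 3 and the largest without mock replicate 1.

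AT2G18370, the other measured type 1 gene, had intensities of 1933, 1463 and 2177 in scutellarin replicates 1, 2 and 3. In mock replicates 1, 2 and 3 it had 719, 1108 and 918. All scutellarin arrays were thus above all mock arrays, by a narrower gap than in AT5G01870. Means were 1858 ± 363 in scutellarin seedlings and 915 ± 195 in mock seedlings (SD, n = 3 each). The transcript rose by 1.02 ± 0.18 (SE) on the log2 scale, a 2.03-fold higher level (adjusted p = 0.00228, limma with Benjamini-Hochberg adjustment over all probe sets tested). Among the 9 pairings of arrays, the scutellarin array had between 1.32 and 3.03 times the signal of the mock array. The largest difference within a group was 1.49 times among scutellarin arrays and 1.54 times among mock arrays, so the smallest step between groups was smaller than the spread inside them. Without 1 array the log2 change lay between 0.86 and 1.19, and the call held each time.

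**Figure D1:**
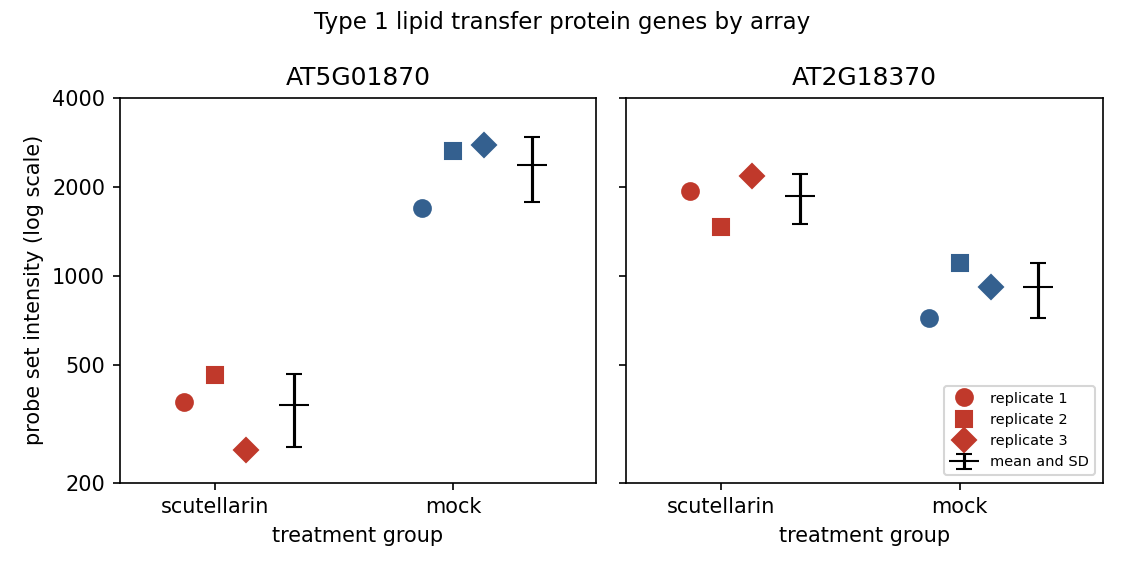
Intensity (log scale) of AT5G01870 and AT2G18370 on each array, with scutellarin on the left of each panel and mock on the right; symbols mark replicates 1 to 3, and the bar beside them is the mean with its SD (n = 3). AT5G01870 sits between 258 and 461 in scutellarin and between 1697 and 2768 in mock, and AT2G18370 between 1463 and 2177 in scutellarin and between 719 and 1108 in mock; heights are not comparable between the panels.

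Among all 15922 probe sets tested, 19.4% changed, 10.3% rising and 9.11% falling, at an adjusted p under 0.05. Groups did not overlap at 37.1% of them, with scutellarin higher at 18.6% and lower at 18.6%. The lead gene's fall chose the list, so nothing is read from the count of 1 lower and 1 risen member against these shares. Their places among all changes are given as a description. AT5G01870 ranked 11 from the most negative change of all probe sets tested, and 0.0628% of them had a more negative one. It was chosen by that fall, so nothing is read from its rank. AT2G18370 ranked 877 from the most positive change, and 5.50% of the probe sets had a larger rise. The median change over all probe sets tested was -0.04 on the log2 scale.

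**Figure D2:**
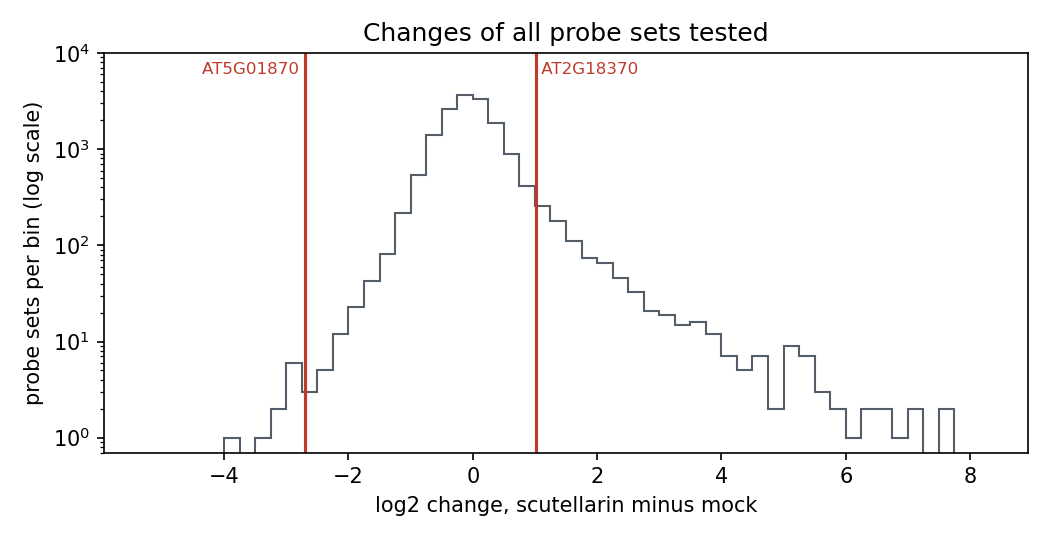
Number of probe sets (log scale) in each bin of log2 change, scutellarin minus mock, for the 15922 probe sets tested; the vertical lines mark the 2 type 1 genes. AT5G01870, at -2.71, lies in the thin lower tail, and AT2G18370, at 1.02, lies on the broad upper shoulder.

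Inside the groups, the members varied in opposite order among scutellarin arrays and more alike among mock arrays. The log2 difference between them had an SD of 0.71 in scutellarin and 0.20 in mock (n = 3 each). Among scutellarin arrays, replicate 3 had the lowest AT5G01870 and the highest AT2G18370, and replicate 2 had the highest AT5G01870 and the lowest AT2G18370. Among mock arrays, replicate 1 was the lowest for both genes, while AT5G01870 was highest in replicate 3 and AT2G18370 in replicate 2. The change of AT5G01870 minus that of AT2G18370, taken within arrays, was -3.73 on the log2 scale, and between -4.08 and -3.38 without 1 array. It is given without a test, because AT5G01870 enters it. Across the 6 arrays the log2 intensities of the pair correlated at -0.88 (Pearson's r, a description of 6 points that share the step between the groups).

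Another type 1 gene, AT2G15325, which the list does not hold, was also named on the array. It had intensities of 1.53, 17.2 and 1.37 in scutellarin replicates 1 to 3 and of 28.5, 1.55 and 31.1 in mock replicates 1 to 3. The groups overlapped, every value was close to that floor, and the gene was among the lowest 30% of probe sets, which were not tested.

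The genes whose pattern was most like each member were found among 8660 other named probe sets by the correlation of log2 intensity over the 6 arrays. For AT5G01870 these were CaS (AT5G23060), AT5G52780, AT1G49750, AT3G14330 and AT1G32810, with r from 0.995 to 0.997. CaS encodes a calcium sensing protein of the chloroplast thylakoid. All 5 were lower in scutellarin than in mock and lowest in scutellarin replicate 3, as AT5G01870 was, but by smaller steps. Choosing genes by a high r selects for such an order. CaS averaged 2676 in scutellarin and 3561 in mock, AT5G52780 averaged 928 and 1985, and AT1G49750 averaged 995 and 2208. Their log2 changes were -0.41, -1.10 and -1.14, against -2.71 for AT5G01870, so the likeness is one of shape and not of size. AT3G14330 and AT1G32810, at -0.58 and -0.28, did not pass the test (adjusted p = 0.0736 and 0.255 in limma). The call of CaS was lost in 4 of 15 alternatives. In all, 183 of the 8660 had r above 0.95.

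The genes most like AT2G18370 were AT1G63580, AT1G31850, AT4G12650, AT4G14420 and AT1G51160, with r from 0.995 to 0.999. Each was highest in scutellarin replicate 3 and lowest in mock replicate 1, the order seen in AT2G18370. AT4G14420 averaged 1892 in scutellarin and 1179 in mock, a log2 change of 0.69, and AT1G31850 averaged 273 and 158, a change of 0.79. The call of AT1G31850 was lost in 3 of 15 alternatives and that of AT4G12650 in 2. AT1G63580, the most alike, and AT1G51160 had changes of 0.27 and 0.29 and did not pass (adjusted p = 0.338 and 0.107 in limma). Here 165 of the 8660 had r above 0.95. With 6 arrays in 2 groups such values are common, and they describe these arrays only. The likeness stayed above 0.951 for all 10 genes when 32 was added, when arrays were centred on their medians, and when 1 array was left out.

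**Figure D3:**
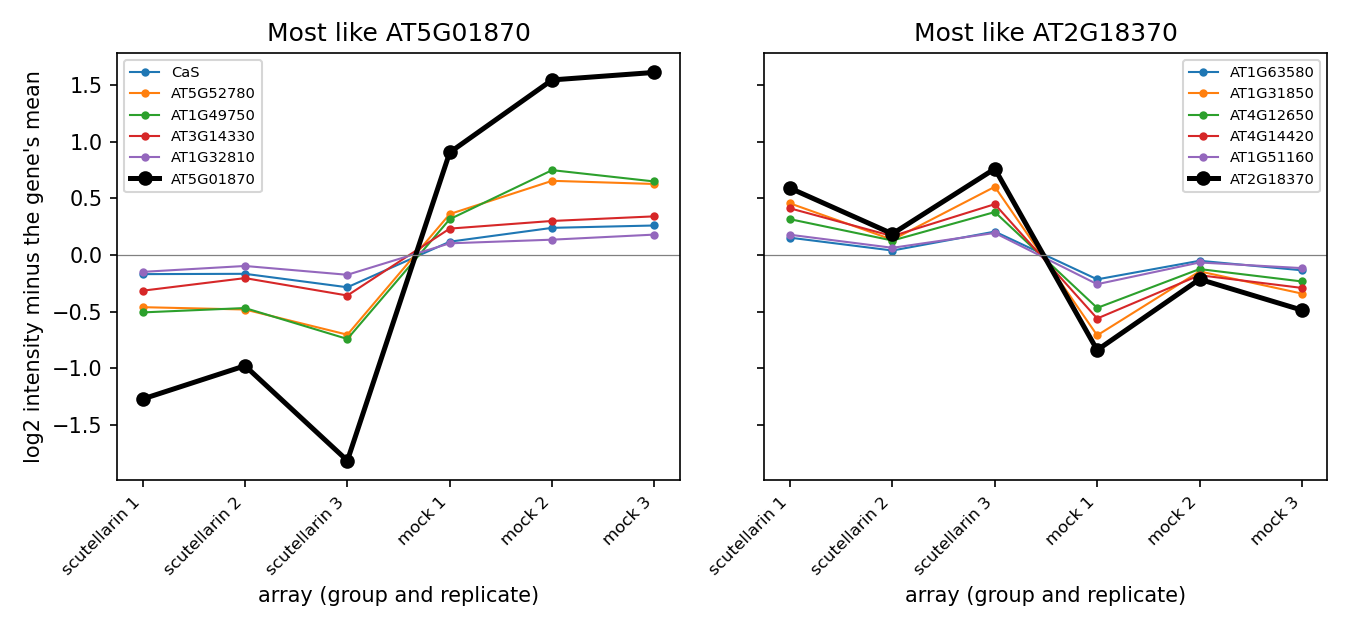
Log2 intensity minus the gene's own mean over the 6 arrays, in scutellarin replicates 1 to 3 and then mock replicates 1 to 3, for AT5G01870 and AT2G18370 (thick black lines) and the 5 named genes most like each (coloured lines). The thin lines take the same side of 0 as the black line in each group, with smaller steps than the black line in both panels.

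Genes beside the members on the chromosome were read where the array named them, taking the nearest 2 named genes on each side. Next to AT5G01870, the adjoining gene AT5G01860 was among the untested low probe sets, at a mean of 28.0 in scutellarin and 12.6 in mock. AT5G01850, 2 genes away, averaged 170 in scutellarin and 256 in mock, a log2 change of -0.61 ± 0.21 that did not pass the test (adjusted p = 0.0552 in limma). It passed without scutellarin replicate 1 (adjusted p = 0.0308), after quantile normalization (adjusted p = 0.0471) and after centring on the median (adjusted p = 0.0456). On the other side, AT5G01910 and AT5G01940, 7 and 10 genes away, had log2 changes of 0.73 and 0.84 and did not pass. Next to AT2G18370, the adjoining gene AT2G18360 averaged 272 in scutellarin and 218 in mock, and its log2 change of 0.32 did not pass. AT2G18340 was untested, and AT2G18400 and AT2G18410, at 0.54 and 0.24, did not pass either. For AT2G18400 the arrays of the groups overlapped, and it passed without scutellarin replicate 1 (adjusted p = 0.0380) and with the replicate block (adjusted p = 0.0395).

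The type 1 genes belong to a wider family that shares the arrangement of 8 cysteines. Its other branches are the lipid transfer proteins tied to the membrane by a GPI anchor, the shorter type 2 proteins with the defence signalling protein DIR1 and its relatives, and the hybrid proline-rich proteins, which join the domain to a proline-rich wall segment. Together with AT2G15325 these branches had 43 named genes, of which 18 were among the untested low probe sets and 25 were tested. A gene that is high in 1 group only can pass this filter through that group, so the counts below describe the tested genes and no more.

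In the GPI-anchored branch, of 13 named genes 7 were tested. Of these 5 rose, 2 did not pass and none fell, and their median log2 change was 1.62, against 10.3% rising and a median of -0.04 over all probe sets tested. These 7 genes are too few to read a share from. Among the untested genes, AT1G05450 was lower on every scutellarin array than on any mock array, and AT1G36150 was higher. AT4G22640 had intensities of 262, 188 and 249 in scutellarin replicates 1 to 3 and of 12.4, 8.51 and 7.70 in mock replicates 1 to 3. Its mock values lay near the floor, so the size of its rise is uncertain: 4.63 ± 0.39 on the log2 scale (adjusted p = 9.64e-06 in limma), and 2.66 with 32 added. AT4G22640 passed the intensity filter only through its scutellarin arrays. AT2G48130 averaged 791 in scutellarin and 163 in mock and rose by 2.28 ± 0.15. AT3G22620 rose by 1.70 ± 0.22 and AT3G58550 by 1.62 ± 0.14. These 4 rises were each larger than that of AT2G18370, though the differences between genes were not tested.

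In the type 2 branch, of 17 named genes 8 were tested. Of these 1 rose, 5 did not pass and 2 fell, against 10.3% rising and 9.11% falling over all probe sets tested. Their median log2 change was 0.00, and 8 genes are too few to read a share from. AT3G53980 averaged 2244 in scutellarin and 755 in mock and rose by 1.57 ± 0.14 (adjusted p = 1.32e-05 in limma). AT5G48490, a gene related to DIR1, averaged 1445 in scutellarin and 2264 in mock and fell by 0.65 ± 0.12, a far smaller step than in AT5G01870. AT3G18280 fell by 0.61 ± 0.14, and did not pass once mock replicate 2 or mock replicate 3 was left out (adjusted p = 0.0578 without the first and 0.0537 without the second).

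In the hybrid proline-rich branch, of 12 named genes 10 were tested. Of these 2 rose, 5 did not pass and 3 fell, against 10.3% rising and 9.11% falling over all probe sets tested. Their median log2 change was 0.04. AT1G62500, a gene used as a marker of root cortex, averaged 527 in scutellarin and 1194 in mock and fell by 1.16 ± 0.18. AT2G10940 fell by 1.08 ± 0.18 and AT1G62510 by 0.93 ± 0.12. AT4G22460 rose by 3.51 ± 0.81, a call lost with no variance trend or with a robust variance prior (adjusted p = 0.0597 and 0.0832), and by 2.17 with 32 added. Its intensities were 190, 297 and 320 in scutellarin replicates 1 to 3 and 47.0, 68.4 and 3.81 in mock replicates 1 to 3, and without mock replicate 3, the lowest array, the log2 change was 2.21. Of the 25 tested genes of the other branches, none had a change as negative as that of AT5G01870. That gene was chosen by its fall, so nothing is read from its place among them.

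**Figure D4:**
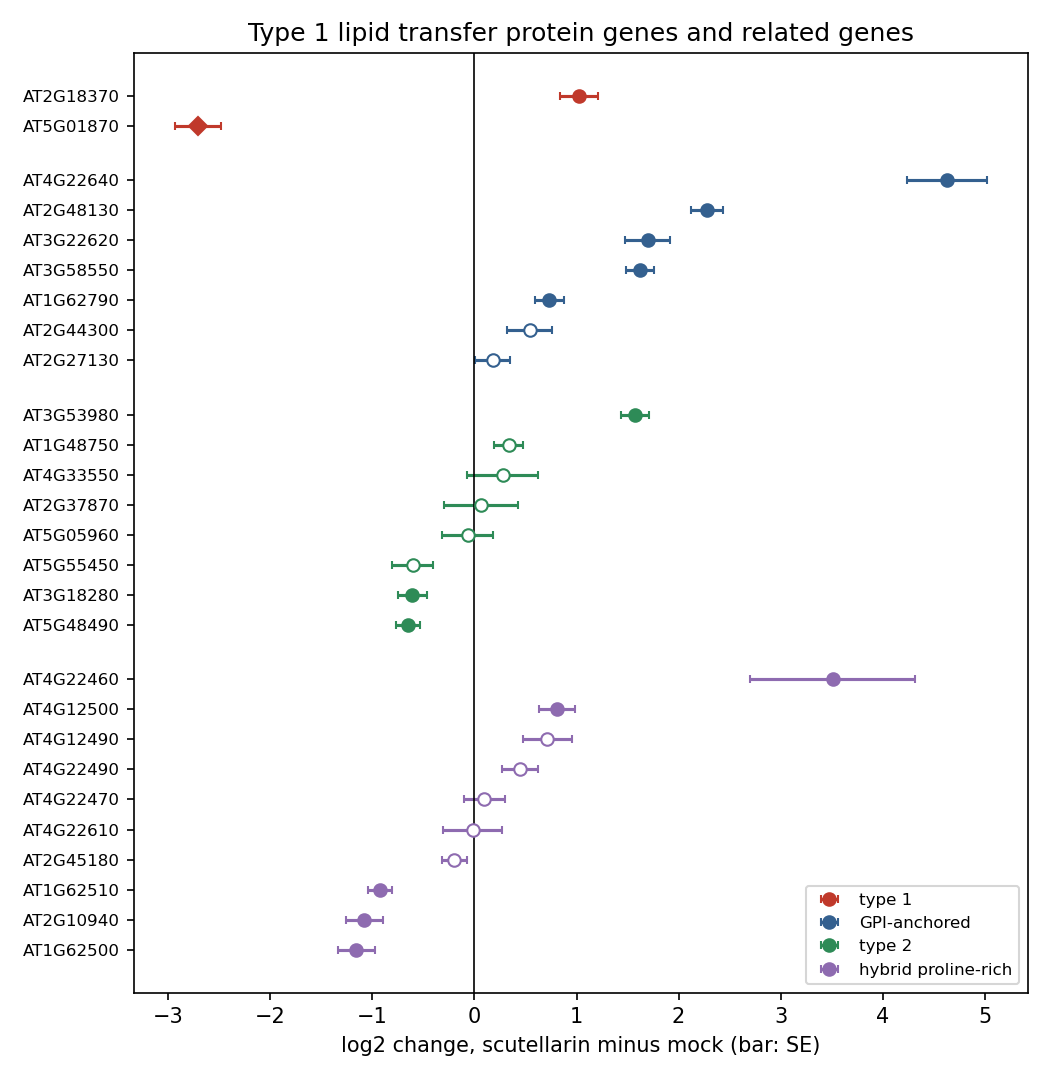
Log2 change, scutellarin minus mock, with its SE for the 2 type 1 genes and the 25 tested genes of the GPI-anchored, type 2 and hybrid proline-rich branches. Filled circles passed an adjusted p under 0.05 and open circles did not. The diamond, AT5G01870, was chosen by its fall and is shown without a test. It lies at -2.71, left of every other point, while the 7 GPI-anchored genes all lie to the right of 0.

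Few genes of the pathways in which type 1 proteins are placed could be read beside them. Of 40 loci listed for cutin and wax, 3 were named and 1 was tested. This was DEWAX (AT5G61590), a repressor of wax synthesis, which averaged 4393 in scutellarin and 5826 in mock and fell by 0.41 ± 0.13 (adjusted p = 0.0466 in limma). Its call was lost in 9 of 15 alternatives (adjusted p = 0.0592 to 0.144), among them the omission of any array but scutellarin replicate 3. Of 13 loci listed for suberin, only FACT (AT5G63560) was named, an enzyme of suberin-associated waxes, and it rose by 1.16 ± 0.20. Some type 1 genes respond to abscisic acid. In the list for that response and water stress, 7 of 29 loci were named and 5 were tested. Of these 2 rose and 3 did not pass, against 10.3% rising over all probe sets tested. COR47, a dehydrin gene, averaged 3096 in scutellarin and 1178 in mock, and LEA18 rose by 3.09 ± 0.67, or by 1.66 with 32 added. LEA18 was near the floor in mock, at 4.48, 34.3 and 21.2 in replicates 1 to 3. It passed the intensity filter only through its scutellarin arrays, so the size of its rise is uncertain.

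Some markers of tissues also differed between the groups, and their part in the members' changes was not tested. All 5 named root markers of the 9 listed rose, against 10.3% of all probe sets tested. The marker lists were drawn up with earlier results of these data known, so nothing is read from their counts. AT1G62500 of the root cortex, which was on another list, fell as given above. The markers' summed intensity was 10973 to 13978 on scutellarin arrays and 5623 to 6315 on mock arrays. Most of that sum was PYK10, an abundant root beta-glucosidase gene, at 9663 to 12583 in scutellarin and 5349 to 6011 in mock. The root hair genes EXPA7 and EXPA18 were near the floor in mock, at 1.81 to 22.0 and 8.89 to 30.7. These 2 genes passed the intensity filter only through their scutellarin arrays. The call of XTH20 was lost without scutellarin replicate 3 (adjusted p = 0.0518 in limma). Both named markers of green tissue, of 12 listed, fell, against 9.11% of all probe sets tested. Their sums were 12119 to 14401 in scutellarin and 19398 to 21439 in mock. Of the shoot epidermis, where many type 1 genes are active, only CR4 of 8 markers was named, at 21.8 to 77.5 in scutellarin and 82.5 to 108.9 in mock, a log2 change of -1.23 ± 0.44 that did not pass (adjusted p = 0.0722 in limma). It did pass without scutellarin replicate 2 (adjusted p = 0.0143) and after quantile normalization (adjusted p = 0.0451), and without scutellarin replicate 1 the change was -0.81 (adjusted p = 0.199), and with 32 added -0.76. The guard cell marker FMA overlapped between the groups, no marker was at exactly 1 on any array, and no vascular marker was named.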

How the data were processed

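RNA of 6 whole-seedling samples, 3 with scutellarin and 3 mock, was measured on ATH1 arrays. The deposited values are intensities on a linear scale, made by the authors with MAS5 per the submitters' processing notes, with settings not given in the sources used here. Trimmed of 2% at either end, array means were 493.9 to 495.1, so the arrays were already scaled, and 0.598% to 1.33% of values per array lay at the floor of 1.

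Gene names came from a platform table, matched by gene ID to the RefSeq table (TAIR10.1): 13513 probe sets named 1 gene, 503 several, and 8730 were not listed. No coordinates are given, because the array's build is not named.

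Intensities were log2-transformed without further normalization, and the lowest 30% of probe sets by mean log2 intensity were left out. Groups were compared in limma 3.58.1 (R 4.3.3) by the moderated two-sided test of eBayes, whose variance prior followed a trend in intensity, and p-values were adjusted by Benjamini and Hochberg's method over 15922 probe sets. The model was run on simulated data drawn from its own fitted variances. That run checks the code and cannot tell how well the model fits these arrays. P-values reflect the spread between 3 arrays per group, which limits the precision.

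The members and gene lists were chosen with earlier results of these data known, the lists from general knowledge of the families. Named genes were every measured member, the 5 most like AT5G01870, and up to 4 changed genes with the largest changes per list. The genes most like AT2G18370, the chromosomal neighbours, and AT2G15325's values were added after the data were seen. PYK10 was named after its values were seen. The alternatives changed the scaling (quantile normalization, centring on the median), the filter (none, or 50% left out), the log2 step (32 added), the variance prior (no trend, or robust), the model (replicate number as block) or the input (without probe sets marked for cross-hybridisation, or without 1 array). Figures were drawn with matplotlib 3.10.9.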

Additional observations from a re-analysis of the deposited data

How the results depend on the processing

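Both type 1 genes kept their direction in all 15 alternatives, and AT2G18370 passed the test in each (adjusted p = 0.00115 to 0.0261 in limma). The filter, the variance prior, the replicate block and the omission of cross-hybridising probe sets cannot move the log2 change itself. Only the scaling, the log2 step and the omission of arrays could have changed a direction, and the fall of AT5G01870 chose the family. With all arrays, the log2 change lay between -2.74 and -2.60 for AT5G01870 and between 0.99 and 1.02 for AT2G18370. The groups share replicate numbers, which no label ties to a shared experiment; deviations from the group means correlated at -0.04, -0.09 and 0.11 between arrays of the same number. The replicate block left AT2G18370 called; it made 2921 calls, and 2776 of these were among the 3094 made without it. Fallen probe sets numbered 1450, and 862 with no variance trend; without 1 array they were 802 to 1437, more than 1.5 times fewer without mock replicate 2 (802), mock replicate 3 (934) and scutellarin replicate 3 (943). Risen probe sets numbered 1644, and 1144 to 1418 without 1 array. Fallen type 2 genes numbered 1 without mock replicate 2 or 3 and 2 without any other single array. They numbered 3 after quantile normalization, after centring on the median, or with the lowest 50% left out. Risen hybrid proline-rich genes numbered 1 with no variance trend, with a robust variance prior, or with the lowest 50% left out (the last because AT4G22460 was then not tested), and 2 to 3 without 1 array. Of the 573 values recomputed for 39 other genes, 23 lost a call, 8 gained one and none reversed. With 3 arrays per group and no detection calls, low probe sets such as AT2G15325 could not be separated from background.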
